A study of Mus musculus with 4 samples.

Results

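The 9 genes described here are the embryonic globins Hbb-bh1, Hbb-y and Hba-x, the alpha-globin Hba-a1, and the erythroid genes Klf1, Alas2, Epor, Slc4a1 and Tfrc. They were chosen by symbol: every probe that is not a control and whose RefSeq accession belongs to one of these genes was taken, which gave 12 of the 55681 probes and 9 of the 20660 genes named on the array. RNA came from mouse EB5 embryonic stem (ES) cells into which a Venus fluorescent reporter of the homeobox gene Hoxb6 had been introduced. They had been differentiated for 6 days on OP9 cells, a mouse stromal line that serves as feeder. The Venus-positive fraction (Flk-1+ Hoxb6-Venus+) and the Venus-negative fraction (Flk-1+ Hoxb6-Venus-) were sorted from these cultures, and each was hybridised to 2 single-colour Agilent arrays. Both fractions carry the reporter, both were sorted for Flk-1 (the product of Kdr, a receptor for VEGF), and both derive from a single ES cell line.

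Mouse red cells first arise in the yolk sac as primitive erythroid cells, which share mesodermal Flk-1+ precursors with endothelium. Primitive erythroid cells make embryonic globins from the alpha-like gene Hba-x and the beta-like genes Hbb-bh1 and Hbb-y, and in the mouse the balance moves from Hbb-bh1 towards Hbb-y and from Hba-x towards the Hba-a genes as these cells mature. Gata1 and Klf1 are the transcription factors that switch on globin, heme and membrane genes, Epor carries the survival signal of erythropoietin, and Tfrc imports the iron that Alas2 and its pathway build into heme.

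All 4 arrays lay on 1 slide with 1 scan. Both position indices of the slide are taken up by the design: one went with the replicate number and the other with the fraction, so that slide position and fraction cannot be told apart. Between 50.7% and 53.0% of the spots were well above background (brighter than the local background by the scanner software's own criterion), 0 spots were saturated, and with so few arrays every value is imprecise. The labels do not say that replicates came from separate cultures; the spread behind each p-value is therefore that of these 4 samples and may be technical. As checks of the sort, Hoxb6 had processed signals of 1712 and 1875 on the Venus-positive arrays, against 925 and 685 on the Venus-negative arrays, and Kdr 28610 and 27040 against 20835 and 16277. Neither difference passed the test used below, with log2 changes of 1.01 ± 0.16 SE (adjusted p = 0.0717) for Hoxb6 and 0.44 ± 0.11 SE (adjusted p = 0.138) for Kdr. A second, dimmer Kdr probe gave a smaller log2 change of 0.25 ± 0.10 SE (adjusted p = 0.243 in limma with each probe as a feature).

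Promoter sequences of 7 of the 9 genes were found in a RefSeq table (GRCm38.p6). Those of Hbb-y and Hba-x are shown because these embryonic globins ran differently across the arrays, and those of Klf1 and Alas2 because these genes carry the erythroid regulator and the first step of heme synthesis. Each runs 5′ to 3′ in the direction of the gene over 300 bases around the start of transcription, and positions before the start are negative. Capitals mark matches to 3 motifs, each searched on both strands, so that some capitals spell a reverse complement. The GATA box was searched for as the letters AGATAA and also, as an alternative spelling, as the letters TGATAA. For the motif that erythroid Krüppel-like factors bind, called the CACC box here, the letters searched for were CACCC. The last motif, found in many promoters, was the one named for its own letters, CCAAT.
Hbb-y promoter, chr7:103853158-103853457, minus strand: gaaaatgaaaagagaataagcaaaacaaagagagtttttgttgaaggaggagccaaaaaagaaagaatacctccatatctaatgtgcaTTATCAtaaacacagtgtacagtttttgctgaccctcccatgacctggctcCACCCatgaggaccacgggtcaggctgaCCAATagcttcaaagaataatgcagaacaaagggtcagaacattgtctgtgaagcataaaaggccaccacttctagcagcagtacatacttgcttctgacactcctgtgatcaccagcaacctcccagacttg
Hba-x promoter, chr11:32276350-32276649, plus strand: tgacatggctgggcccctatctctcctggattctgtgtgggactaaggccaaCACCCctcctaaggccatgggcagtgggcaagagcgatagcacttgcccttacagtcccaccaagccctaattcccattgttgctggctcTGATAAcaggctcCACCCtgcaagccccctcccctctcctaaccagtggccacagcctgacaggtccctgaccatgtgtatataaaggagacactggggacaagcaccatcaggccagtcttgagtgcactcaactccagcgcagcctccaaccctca
Klf1 promoter, chr8:84901732-84902031, plus strand: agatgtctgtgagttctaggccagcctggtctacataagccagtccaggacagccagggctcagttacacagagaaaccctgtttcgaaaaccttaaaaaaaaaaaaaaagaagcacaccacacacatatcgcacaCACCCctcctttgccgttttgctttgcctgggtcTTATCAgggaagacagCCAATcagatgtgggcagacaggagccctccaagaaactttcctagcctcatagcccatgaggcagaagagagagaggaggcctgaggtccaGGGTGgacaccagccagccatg
Alas2 promoter, chrX:150547167-150547466, plus strand: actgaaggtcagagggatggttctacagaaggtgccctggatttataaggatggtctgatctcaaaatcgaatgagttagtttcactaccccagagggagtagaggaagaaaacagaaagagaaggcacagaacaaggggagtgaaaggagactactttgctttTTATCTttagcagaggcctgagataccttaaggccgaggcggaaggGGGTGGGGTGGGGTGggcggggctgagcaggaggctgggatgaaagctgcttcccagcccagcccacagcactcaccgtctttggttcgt

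The GATA box letters are those bound by Gata1, and CACCC those bound by Klf1. A GATA box stood in 6 of the 8 promoters of the 7 matched genes (Tfrc has 2 promoters in the table), against 18.6% of all 32851 promoters in the table. A CACC box stood in 8 of 8, against 57.5% of all promoters, and a CCAAT box in 4 of 8, against 37.4%. The 2 Tfrc windows overlap and share a CACC match, so the 8 promoters are not all separate sequences. In the Hba-x promoter TGATAA lay at -108 to -103 and CACCC at -198 to -194 and at -95 to -91, and in that of Hbb-y the GATA box lay at -162 to -157, CACCC at -111 to -107 and CCAAT at -83 to -79. In Klf1 the GATA box lay at -80 to -75, and in Alas2 at -86 to -81, where 3 CACC boxes on the opposite strand followed end to end between -40 and -26; no 2 marked matches in these promoters overlapped. The 2 promoters without a GATA box were those of Tfrc, a gene that nearly every dividing cell uses. These matches are a description of the letters in the window and were not set against the array values.

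Of the 9 erythroid genes, 8 were well above background on all 4 arrays, and 0 of these 8 differed between Venus-positive and Venus-negative cells in limma at a Benjamini-Hochberg adjusted p under 0.05. Over all 13926 genes tested, 2.83% passed. At an unadjusted p under 0.05 the count was also 0 of 8, against 26.0% of all genes. The log2 change (Venus-positive minus Venus-negative) was negative in 6 and positive in 2 of the 8, with a median of -0.42, against 0.01 over all genes. That median depended on which Venus-negative array was kept: it was -0.0054 without replicate 2 and -0.79 without replicate 1. Set against the array of the same number (replicates 1 and 2), Venus-positive cells were lower in both for Hbb-bh1 (-0.23 and -1.22) and Klf1 (-0.40 and -1.31). So they were for Alas2 (-0.35 and -1.07), Epor (-0.24 and -0.76) and Tfrc (-0.42 and -0.27). Hba-x was higher in both, and Hbb-y and Hba-a1 were higher in replicate 1 and lower in replicate 2. The labels do not pair the arrays. The arrays of the fractions did not overlap for 2 of the 8 genes, Alas2 and Tfrc, both lower in Venus-positive cells; of all genes 61.7% did not overlap, and 29.4% did not overlap and were lower. In bulk RNA, fewer erythroid cells and less of each RNA per cell cannot be told apart.

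**Figure D1:**
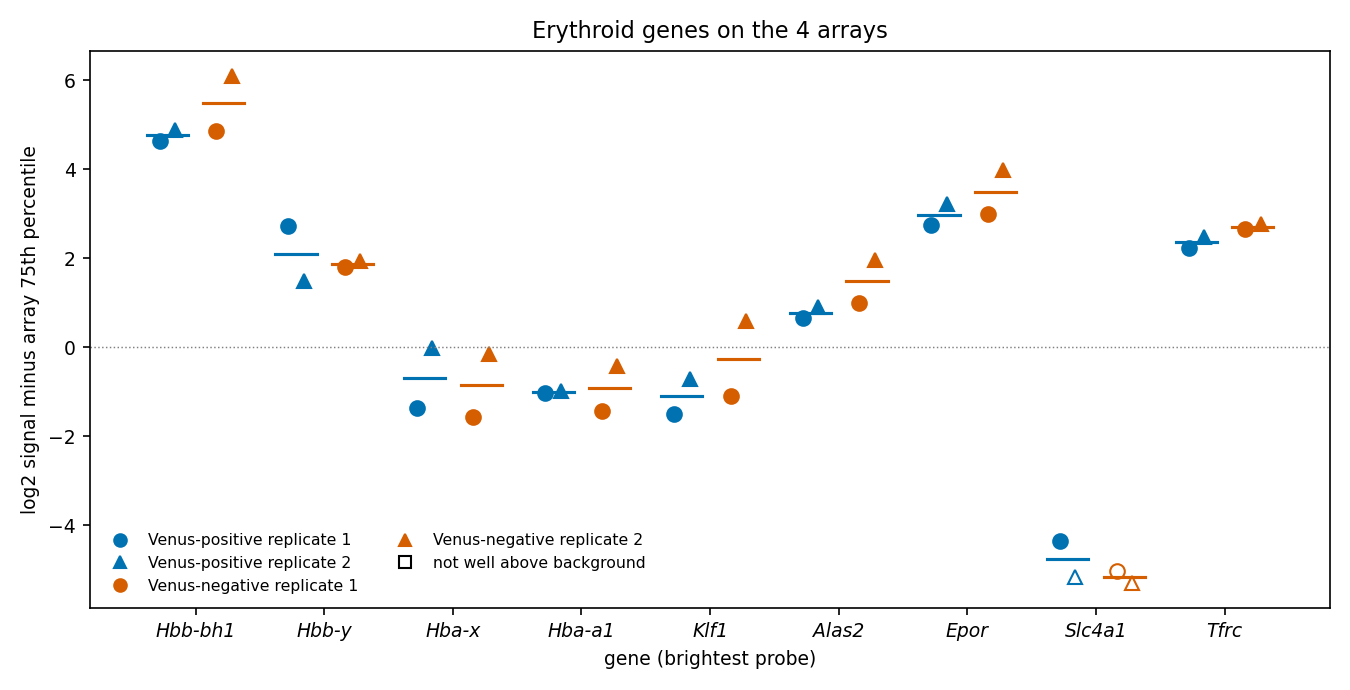
Level of each erythroid gene on the 4 arrays: the y axis is the log2 processed signal minus the array's 75th percentile, circles are replicate 1, triangles replicate 2, short lines the mean of each fraction, and open symbols mark arrays not well above background. Venus-negative replicate 2 is the highest array for 6 of the 8 genes measured throughout, Hbb-y is highest on Venus-positive replicate 1, and Slc4a1 is filled on 1 array only.

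Hbb-bh1, the beta-like globin that leads in early primitive erythroid cells, was bright in both fractions. Its processed signal was 10716 and 11692 on the Venus-positive arrays (replicates 1 and 2), against 11549 and 23665 on the Venus-negative arrays. Venus-negative replicate 2 thus stood apart from the other 3 arrays, which lay close together. On the normalised log2 scale, where 0 is the array's 75th percentile, Hbb-bh1 averaged 4.76 ± 0.17 in Venus-positive and 5.48 ± 0.87 in Venus-negative cells (SD, n = 2 each). The log2 change of -0.72 ± 0.46 SE did not pass (adjusted p = 0.419), and its 95% interval ran from -2.03 to 0.59. The interval holds 0 as well as falls and rises, so these arrays neither show nor exclude a change in Hbb-bh1 of that size. It is not a limit of detection. Without Venus-negative replicate 2 its log2 change was -0.11.

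Hbb-y, the neighbouring embryonic beta-like globin, did not follow Hbb-bh1. On the probe with the higher signal it had 2815 and 1115 on the Venus-positive arrays, against 1369 and 1328 on the Venus-negative arrays, so that the highest and the lowest array were both Venus-positive. The second Hbb-y probe gave the same order of arrays, with 2465 and 938 on the Venus-positive and 1168 and 1129 on the Venus-negative arrays. Both probes report one gene from the same RNA and are not replicates of the fractions. The log2 change of Hbb-y was 0.24 ± 0.46 SE (adjusted p = 0.793), with a 95% interval of -1.06 to 1.54, and 0.25 ± 0.48 on the second probe. It turned to -0.38 without Venus-positive replicate 1.

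Hba-x, the embryonic zeta-like alpha-globin, split by replicate number rather than by fraction. Its signal was 166 and 395 on the Venus-positive arrays, against 133 and 313 on the Venus-negative arrays. Replicate 2 was the higher array in both fractions, by 1.35 on the log2 scale in Venus-positive and 1.43 in Venus-negative cells. Within replicate 1 the Venus-positive array lay 0.21 above the Venus-negative one, and within replicate 2 it lay 0.14 above. The fitted log2 change was 0.17 ± 0.72 SE (adjusted p = 0.907), the widest SE of the 8 genes, and it was -0.50 without Venus-positive replicate 2 and -0.54 without Venus-negative replicate 1.

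Hba-a1, an alpha-globin of later embryonic and adult red cells, had signals of 210 and 201 on the Venus-positive arrays, against 147 and 258 on the Venus-negative arrays. The Venus-positive arrays agreed closely and lay between the Venus-negative ones. Its log2 change was -0.08 ± 0.38 SE (adjusted p = 0.921), with a 95% interval of -1.15 to 0.99, and 0.43 without Venus-negative replicate 2. The near-identical gene Hba-a2 had a separate probe with 754 and 818 on the Venus-positive arrays, against 615 and 990 on the Venus-negative arrays (log2 change -0.15 ± 0.34, adjusted p = 0.827, or 0.29 without Venus-negative replicate 2). How far each of these probes also binds the other transcript is not known, so the values of the pair are uncertain by gene.

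Klf1, the transcription factor that drives globin and other red cell genes, had the largest change in size and a wide spread. Its signal was 152 and 242 on the Venus-positive arrays, against 184 and 521 on the Venus-negative arrays. Venus-negative replicate 2 was again the highest, and Venus-negative replicate 1 lay between the Venus-positive arrays. The normalised log2 level averaged -1.11 ± 0.55 in Venus-positive and -0.26 ± 1.19 in Venus-negative cells (SD, n = 2 each). The log2 change of -0.85 ± 0.68 SE had an adjusted p of 0.512 and a 95% interval of -2.79 to 1.08. Without Venus-negative replicate 2 its log2 change was -0.01, and without Venus-negative replicate 1 it was -1.70.

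Alas2 encodes the erythroid form of the first enzyme of heme synthesis. Its signal was 672 and 741 on the Venus-positive arrays, against 791 and 1351 on the Venus-negative arrays. Both Venus-positive arrays lay below both Venus-negative arrays, but the Venus-negative arrays differed from each other by more than the fractions did. The log2 change was -0.71 ± 0.37 SE, a factor of 1.63 (adjusted p = 0.340), with a 95% interval of -1.77 to 0.35, and it was -0.23 without Venus-negative replicate 2.

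Epor, the erythropoietin receptor, had 2879 and 3689 on the Venus-positive arrays, against 3127 and 5437 on the Venus-negative arrays. The groups overlapped, since Venus-negative replicate 1 lay between the Venus-positive arrays on the normalised scale. The log2 change was -0.50 ± 0.41 SE (adjusted p = 0.521), with a 95% interval of -1.65 to 0.66. It was under 0.01 in size without Venus-negative replicate 2 and -0.99 without Venus-negative replicate 1.

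Slc4a1 encodes band 3, the anion exchanger of the mature red cell membrane. Its signal was 20.9 and 11.1 on the Venus-positive arrays, against 12.1 and 8.86 on the Venus-negative arrays. It was well above background on Venus-positive replicate 1 alone and was therefore not tested with the other genes. With no array of the Venus-negative fraction and 1 of the Venus-positive fraction above background, no fold is given.

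Tfrc, the transferrin receptor through which cells take up iron, was measured by 3 probes, of which one is printed as 10 spots on each array. On that probe the signal was 2019 and 2224 on the Venus-positive arrays, against 2495 and 2345 on the Venus-negative arrays. Its spots differed little within an array: their coefficient of variation was between 3.06% and 3.99%, with 9 or 10 spots used. The Venus-positive arrays lay below the Venus-negative arrays, by 0.35 ± 0.13 SE on the log2 scale (a factor of 1.27), with a 95% interval of the log2 change from -0.73 to 0.03 and an adjusted p of 0.238. The other 2 probes ran the same way, with log2 changes of -0.49 ± 0.12 (adjusted p = 0.124) and -0.68 ± 0.18 (adjusted p = 0.145). Their signals were 90.2 and 92.3 on the Venus-positive arrays, against 117 and 113 on the Venus-negative arrays, and 641 and 645 against 852 and 1002. On all 3 probes the arrays of the fractions did not overlap, yet none passed over all probes, and all 3 share a transcript, so they count as 1 gene.

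**Figure D2:**
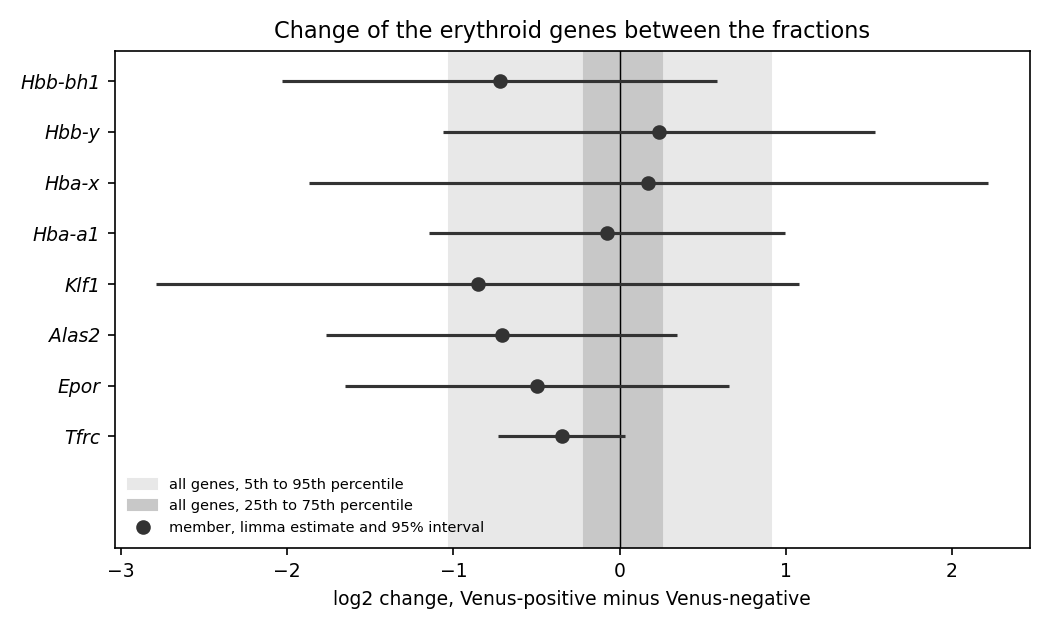
Log2 change of the 8 tested erythroid genes, Venus-positive minus Venus-negative, with limma's 95% interval; the x axis is the log2 change, and the shaded bands hold the central changes of all genes tested (dark: -0.21 to 0.26, light: -1.03 to 0.91). All 8 intervals include 0, and those of Klf1 and Hba-x are the widest.

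The spread between replicates was itself uneven. In Venus-positive cells the 2 arrays differed by a median of 0.36 (absolute log2 difference) over the 8 erythroid genes, against 0.15 over all genes, and in Venus-negative cells by a median of 1.00, against 0.17 over all genes. Differences above the 90th percentile of all genes (0.58 in Venus-positive and 0.64 in Venus-negative cells) occurred for 3 of the 8 genes in Venus-positive cells, namely Hbb-y, Hba-x and Klf1, and for 6 of the 8 in Venus-negative cells, all except Hbb-y and Tfrc. On the normalised log2 scale, replicate 2 was the higher array in Venus-negative cells for 8 of the 8 genes, against 50.3% of all genes. In Venus-positive cells it was so for 7 of the 8, against 50.9%, the exception being Hbb-y. Before centring, the processed signals of Hbb-y and Tfrc in Venus-negative cells and of Hba-a1 in Venus-positive cells were slightly lower on replicate 2. The largest replicate differences in Venus-negative cells were those of Klf1 (1.69), Hba-x (1.43) and Hbb-bh1 (1.22). The genes share these arrays and are not independent, so the counts describe 4 arrays and carry no test.

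**Figure D3:**
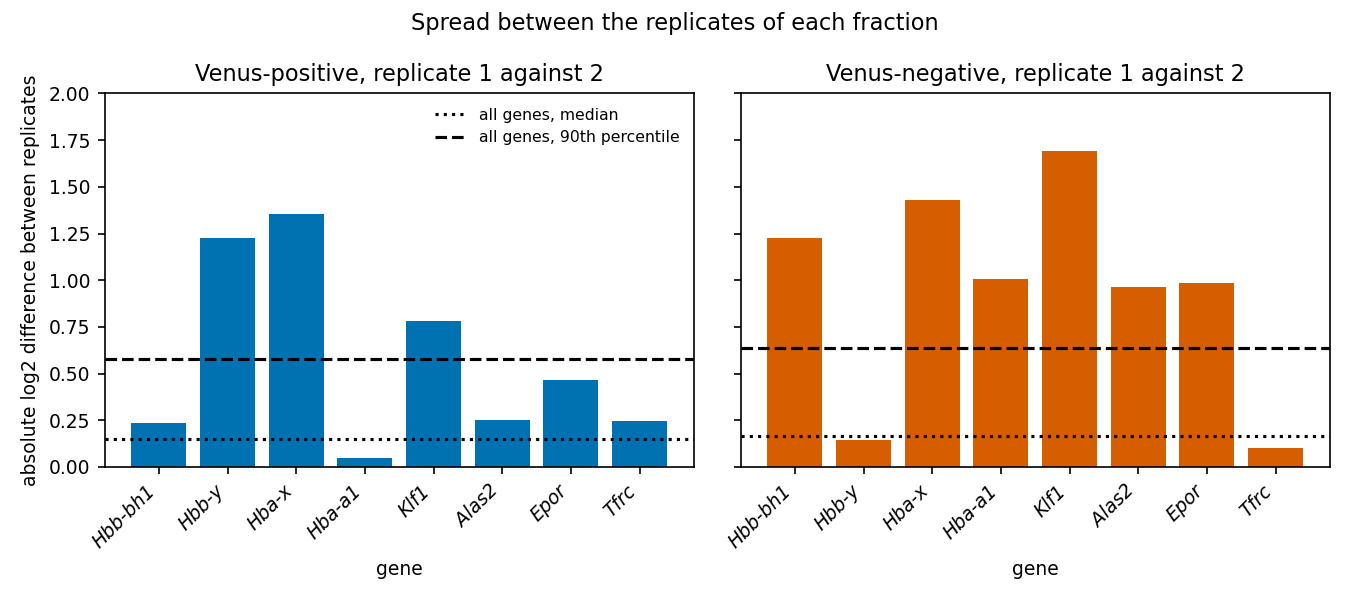
Absolute log2 difference between the replicates of each fraction for the 8 erythroid genes (bars), Venus-positive on the left and Venus-negative on the right, with the median and the 90th percentile of all genes as lines. Bars above the dashed line number 3 in Venus-positive and 6 in Venus-negative cells; Tfrc stays below it in both.

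Marker lists of the other cells that a Flk-1+ gate or the feeder could contribute moved less between the Venus-negative replicates. The erythroid markers (9 of 12 tested) had a median difference of 1.02, replicate 2 minus replicate 1, on the log2 scale. It was 0.64 for megakaryocyte markers (5 of 7 tested), 0.42 for early hematopoietic progenitor markers (8 of 10), 0.32 for endothelial markers (12 of 12), 0.24 for macrophage and myeloid markers (4 of 9), -0.24 for streak and nascent mesoderm (12 of 12), -0.19 for OP9 stromal and fibroblast markers (12 of 13) and -0.61 for ES cell markers (7 of 7). Their part in the erythroid differences was not tested, and since OP9 is a mouse line the probes cannot tell its RNA from that of the ES-derived cells. Between the Venus-positive replicates the erythroid median was 0.35, the endothelial 0.30, the streak median -0.50, the OP9 stromal median -0.40 and the ES cell median -0.56.

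The summed level of each marker list, as log2 of the normalised signals added up, gives the same arrays side by side. It was 5.72 and 5.90 for erythroid markers on the Venus-positive arrays, against 5.88 and 6.90 on the Venus-negative arrays, so that 3 of the 4 arrays lay close together. For OP9 stromal markers it was 6.01 and 5.56 against 6.28 and 6.19, for megakaryocyte markers 2.12 and 2.38 against 1.71 and 2.87, for early hematopoietic progenitor markers 7.38 and 7.29 against 5.87 and 6.27, and for macrophage and myeloid markers 6.33 and 6.23 against 6.10 and 6.34. Many markers of other blood cells with a probe were well above background on all 4 arrays. They were 8 of 9 for early hematopoietic progenitors, 5 of 7 for megakaryocytes and 4 of 7 for macrophage and myeloid cells. Ptprc (the leukocyte antigen CD45), Ppbp (megakaryocyte), and Lyz2, Adgre1 and Fcgr1 (macrophage) were not well above background on any array. Endothelial markers were 9.01 and 9.23 against 8.02 and 8.26, streak and nascent mesoderm markers 4.08 and 3.55 against 6.11 and 5.88, and ES cell markers 4.93 and 4.37 against 6.22 and 5.59. The streak, ES cell and OP9 stromal sums were thus lower, and the progenitor and endothelial sums higher, on both Venus-positive arrays than on either Venus-negative array. The progenitor genes did not move together: of the 8 tested, 3 were nominally above and 5 below 0 in log2 change (median -0.07).

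Among the globins beyond these genes, the adult beta-globins Hbb-b2 and Hbb-bt were highest on Venus-negative replicate 2, as was Hbb-bh1. Hbb-b2 had signals of 151 and 115 on the Venus-positive arrays, against 170 and 238 on the Venus-negative arrays (log2 change -0.77 ± 0.28 SE, adjusted p = 0.221). Hbb-bt had 325 and 287 against 316 and 476 (-0.50 ± 0.30, adjusted p = 0.389). The normalised values of the fractions did not overlap for either gene, but without Venus-negative replicate 2 the log2 change was -0.44 for Hbb-b2 and -0.11 for Hbb-bt. These beta-globin genes are near copies of each other, so that their probes may report a shared signal. Of the 14 globin and globin-related genes with a probe, 8 were well above background on all 4 arrays and 5 on none, among them Hbb-bs and Hbb-bh2. Of the 8 tested, 0 were higher and 0 lower, with a median log2 change of -0.24, or 0.09 without Venus-negative replicate 2.

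Of 16 erythroid transcription factors listed with Klf1, 15 were well above background on all 4 arrays, and Sox6 on none. Gata1, the GATA factor without which red cells do not form, had 3062 and 3627 on the Venus-positive arrays, against 3619 and 6445 on the Venus-negative arrays, and Venus-negative replicate 2 was the highest array, as for Klf1. Its log2 change was -0.69 ± 0.40 SE (adjusted p = 0.380), and -0.18 without Venus-negative replicate 2. Nfe2, a globin gene activator that works with small Maf proteins, had 506 and 696 against 631 and 1503 (-0.87 ± 0.57, adjusted p = 0.427), with a log2 change of -0.15 without Venus-negative replicate 2 and -1.59 without Venus-negative replicate 1. Bcl11a, known as a repressor of embryonic and foetal globins, had 85.5 and 51.6 against 143 and 172 (-1.39 ± 0.29, adjusted p = 0.110), and Klf2, a factor of endothelium that also acts on embryonic globins in the mouse, 19156 and 23799 against 9264 and 10587 (0.95 ± 0.23, adjusted p = 0.126). Of the 15 erythroid transcription factors tested, 0 were higher and 0 lower, and the median log2 change was -0.09.

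Around Alas2, the heme synthesis list was measured in full, with 13 of 13 genes well above background on all 4 arrays, 0 higher, 0 lower and a median log2 change of -0.06. Tspo, a mitochondrial membrane protein of porphyrin and cholesterol handling, had 1658 and 1474 on the Venus-positive arrays, against 2442 and 2115 on the Venus-negative arrays (-0.70 ± 0.10 SE, adjusted p = 0.0638). Ppox, a late enzyme of the pathway, had 710 and 696 against 421 and 502 (0.46 ± 0.19, adjusted p = 0.259, or 0.23 without Venus-negative replicate 1). Around Tfrc, 15 iron uptake and storage genes were tested, with 0 higher, 0 lower and a median of -0.01. The largest value there was that of Slc40a1, the iron exporter ferroportin, with 676 and 686 against 181 and 218, a factor of 3.08 (log2 change 1.62 ± 0.20) that fell just short (adjusted p = 0.0553). Trf, the serum iron carrier transferrin, stood at 0.76 ± 0.34 (adjusted p = 0.280, or 0.32 without Venus-negative replicate 1) and Hfe, a partner of the transferrin receptor, at 0.72 ± 0.13 (adjusted p = 0.0943).

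In the list around Epor, Kit and Socs2 passed the test in opposite directions. Kit, the stem cell factor receptor of blood progenitors and other cell types, rose 2.41-fold in Venus-positive cells, with 6794 and 5756 on the Venus-positive arrays, against 2375 and 2279 on the Venus-negative arrays (log2 change 1.27 ± 0.11 SE, adjusted p = 0.0395). Socs2, a cytokine-induced suppressor of JAK-STAT signalling, fell 3.06-fold, with 325 and 298 against 978 and 746 (-1.62 ± 0.12, adjusted p = 0.0349). Both calls were lost in limma without any 1 of the 4 arrays, where the log2 change ranged from 1.20 to 1.33 for Kit and from -1.72 to -1.51 for Socs2. They were also lost with dim probes kept (adjusted p of 0.144 for Kit and 0.143 for Socs2). In these settings all genes lost their calls. Over all genes 0.984% were higher and 1.85% lower, and of the 13 genes of this list 1 was higher and 1 lower, with a median of 0.06. Epo, the ligand of Epor, and Erfe, an erythroid hormone of iron control, were not well above background on any array.

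Of 20 membrane and skeleton genes, 13 were well above background on all 4 arrays, while Slc4a1, Rhag, Sptb and Tmod1 were so on some arrays and 3 on none, among them Ank1, which encodes ankyrin. Of the 13 tested, 0 were higher and 0 lower, with a median of 0.23, or 0.03 without Venus-negative replicate 1. Icam4, a red cell adhesion protein, stood at -1.29 ± 0.38 SE (adjusted p = 0.167), Add2, beta-adducin, at 0.80 ± 0.39 (adjusted p = 0.318, or 0.39 without Venus-positive replicate 1), and Slc2a1, the glucose transporter of red cells and endothelium, at 0.54 ± 0.12 (adjusted p = 0.114). Of the red cell enzyme genes 11 were tested, with a median of 0.01, or -0.17 without Venus-negative replicate 1; of the 10 well above background on all 4 arrays, 0 were higher and 0 lower. The other one was Alox15, a lipoxygenase that helps reticulocytes lose their mitochondria, with signals of 3.91 and 3.08 on the Venus-positive arrays, where it was not well above background, against 16.9 and 24.2 on the Venus-negative arrays. It entered the test through the Venus-negative arrays alone, so its adjusted p of 0.0469 rests on background readings in Venus-positive cells. As a bound on the processed signals, it was at least 1.88-fold lower there. That bound takes the dim Venus-negative signals as exact. It does not hold with normexp background correction, where the log2 change was -0.43. The call was lost in limma with normexp background correction (adjusted p of 0.138), with dim probes kept (0.155) and with the replicate number as a block (0.0561). It was also lost without any 1 of the 4 arrays. With dim probes kept or an array left out, all genes lost their calls.

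**Figure D4:**
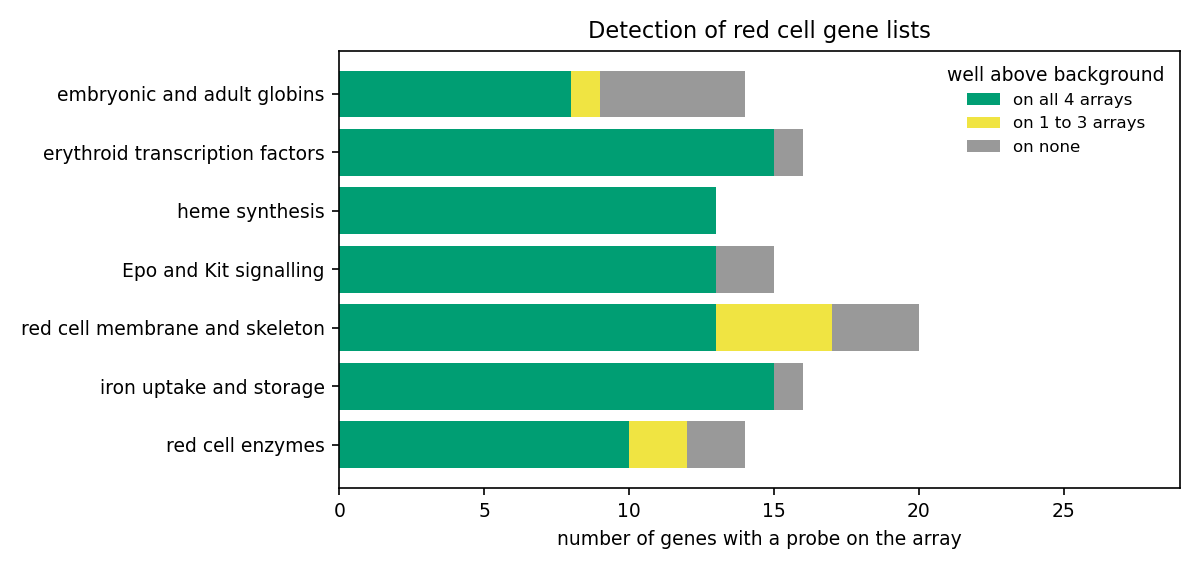
Genes of the 7 red cell lists with a probe on the array, divided into those well above background on all 4 arrays, on 1 to 3 arrays and on none; the x axis counts genes. The bar of heme synthesis is green throughout with 13 genes, and that of membrane and skeleton genes holds 13 genes on all arrays, 4 on some and 3 on none.

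Genes with the pattern most like that of Hbb-bh1 over the 4 arrays were sought by the Euclidean distance between log2 values centred on each gene's mean, among 12750 other named genes measured on all arrays. The nearest were Slc38a5, an amino acid transporter (distance 0.12), Slc6a13, a GABA transporter (0.13), and Smim1, a small membrane protein of the red cell (0.13). Smim1 stood at 0.04 and 0.34 on the Venus-positive arrays, against 0.43 and 1.51 on the Venus-negative arrays, on the normalised log2 scale. In all, 130 genes lay within a distance of 0.5 of Hbb-bh1. For Tfrc the nearest were Srm, spermidine synthase (0.01), Mak16, a ribosome biogenesis factor (0.02), and Zfp345, a zinc finger gene (0.02). Tfrc varied little over the arrays, so that small distances to it come easily to genes that vary little. With 4 arrays, nearness of 2 patterns is a description only.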

How the data were processed

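The deposited scanner output gives an intensity for every spot. Per the file headers, Agilent Feature Extraction 10.10.1.1 subtracted background and spatial trend array by array, and the arrays were not scaled to each other. The authors also deposited a value table, which holds these intensity values times 1 constant per array (1.98 and 2.11 for Venus-positive, 2.15 and 2.44 for Venus-negative); its column medians were 41.0 and 38.1 for Venus-positive and 41.0 and 42.3 for Venus-negative arrays, genes were not centred, and how the constants were set is not given in the sources used here.

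From these, log2 processed signals were centred on each array's 75th percentile (a signal of 429 and 398 for Venus-positive and 396 and 347 for Venus-negative arrays), without control spots and without outlier spots (152 to 196 an array). Spots of a probe were averaged. Accessions were named through a RefSeq table (GRCm38.p6): 27235 probes had a symbol and 28446 none. A probe was kept (27901 were) if either fraction had it well above background on both its arrays, the brightest standing for its gene, which gave 23548 features, of which 13926 were genes. The comparison was made in limma 3.58.1 (R 4.3.3), with Benjamini-Hochberg p-values adjusted over all features, with 2 residual and 1.8 prior degrees of freedom. The 3 Tfrc and 2 Hbb-y probes and the second Kdr probe were also fitted with each probe as a feature. The fit was tested on simulated data with known changes. It called 4.69% of log2 changes of size 1, 57.1% of size 2 and 86.4% of size 4. Changes as small as those of the erythroid genes, of which the largest was -0.85 (Klf1), would thus seldom be called. For a gene dim throughout a fraction, the fold is a bound: the mean of the bright fraction's arrays over, for each dim array, the higher of its own signal and the lowest signal well above background.

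The 9 genes, the 7 pathway and 8 marker lists and the tests were chosen with earlier results of these data known. Named were the 9 genes; in each pathway list up to 4 genes that passed, or else up to 3 with the largest change among those measured on all arrays; Hba-a2, Hbb-b2, Gata1, Hoxb6 and Kdr; and the nearest patterns. No probe matched Hbb-b1, Hbb-bh0, Ahsp, Hfe2, Cd41, Cd68 or Emr1. Alternatives were other background correction, scaling, filters, probe summaries, variance prior, a replicate block, the authors' value table, and leaving out each array. The normexp alternative used the median spot signal in place of the planned mean signal. Some genes of the lists are counted but not reported by name here.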

Additional observations from a re-analysis of the deposited data

How the results depend on the processing

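Under every alternative that kept all 4 arrays, 0 of the erythroid genes were called higher and 0 lower. The smallest adjusted p of any of these genes in limma, 1 probe per gene, was 0.128 (Tfrc with the replicate number as a block). With dim probes kept no gene on the array was called, so that setting could not have called an erythroid gene. Leaving out an array leaves 1 array in a fraction, so a lack of calls there carries no information on these genes. At an unadjusted limma p under 0.05, Tfrc alone passed with normexp, quantile normalization, the mean over probes, the signal-dependent variance prior or the replicate block. In these settings the genes under that p, of 13926, were many. They numbered 2164 higher and 1830 lower with normexp, 1937 and 1668 with quantile normalization, and 1874 and 1685 with the mean over probes. With the variance prior they were 2274 and 2041, and with the block 2665 and 2263. Without Venus-negative replicate 1 the log2 changes were -1.19 for Alas2, -0.99 for Epor, -0.58 for Hba-a1, -1.33 for Hbb-bh1 and -1.70 for Klf1. Other background correction and scaling left 6 of 8 log2 changes negative. Leaving out an array moved the median log2 change of these genes between -0.79 (without Venus-negative replicate 1) and -0.0054 (without Venus-negative replicate 2). The sign of 4 globins turned: the log2 change then ranged from -0.38 to 0.85 for Hbb-y, from -0.54 to 0.89 for Hba-x (-0.50 without Venus-positive replicate 2), from -0.58 to 0.43 for Hba-a1 and from -0.59 to 0.29 for Hba-a2.

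Over all genes, 137 were higher and 257 lower in the reported fit. The counts were 491 and 538 with normexp, 259 and 296 with arrays centred on the median, 597 and 650 with the signal-dependent variance prior, and 0 and 0 with dim probes kept, where 1736 and 1783 had an unadjusted p under 0.05. Without any 1 array 0 genes were higher and 0 lower in limma, with 1105 to 1514 higher and 1111 to 1331 lower at an unadjusted p under 0.05. With arrays centred on the median 53.3% of the called genes were lower, with normexp 52.3%, with the variance prior 52.1% and with probes measured on all arrays alone 55.8%, against 65.2% in the reported fit. The replicate numbers share a position index of the slide but no stated origin; deviations of same-numbered arrays correlated at 0.414 across features. With the replicate number as a block 290 genes were higher and 421 lower, and 0 of the erythroid genes were called. Slc40a1 passed with normexp (adjusted p = 0.0158), the variance prior (0.0207), median centring (0.0383), the block (0.0469) and probes measured on all arrays alone (0.0474). Other genes given above as not passing also passed under some alternatives: Tspo and Hoxb6 with normexp (0.0322 and 0.0338) and the variance prior (0.0217 and 0.0282), Klf2 with normexp (0.0486) and the block (0.0490), Icam4 with the block (0.0443), and Slc2a1 and Kdr with the variance prior (0.0347 and 0.0477). Signal near background limits Slc4a1 and Alox15.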

Other observations

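Some genes outside the naming rule, chosen after their values were seen, also differed widely between replicates. Aqp1, the water channel of red cells and vessels, differed by 2.25 on the log2 scale between the Venus-negative replicates and by 1.28 between the Venus-positive replicates, and its log2 change was 0.02 ± 0.94 SE (adjusted p = 0.993). Epb42, a red cell skeleton protein, differed by 0.64 between the Venus-positive and 1.12 between the Venus-negative replicates, and Rhd, a blood group protein, by 1.05 and 0.40. Cd34, an antigen of blood progenitors and endothelium, was likewise chosen after its value was seen, here for its change between the fractions. It rose in Venus-positive cells with a log2 change of 1.63 ± 0.16 SE (adjusted p = 0.0434), a call that, like those of all genes, was lost in limma without any 1 array. Of the 8 early hematopoietic progenitor markers tested, 2 were higher and 0 lower, against 0.984% and 1.85% of all genes. Of these 8 markers, 5 had a negative log2 change, and their median was -0.07.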
